A study of Saccharomyces cerevisiae with 12 samples.

Results

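The genes described here encode assembly factors of the large (60S) ribosomal subunit, the proteins that bind, fold, cut and modify the precursor of the large subunit and then leave it. A list of 54 such genes was matched by symbol to the probe sets of the Affymetrix Yeast S98 array, and all 54 had one, out of 5656 genes tested. Only NOG2 had more than 1 probe set, and the one with the highest mean over the 12 arrays was used. Transcripts were measured in diploid Saccharomyces cerevisiae in 4 groups of 3 arrays: the gpa2 deletion strain MLY132 in SLAM and in YPM, and the wild-type strain MLY61 in SLAM and in YPM. The design text gives triplicate cultures for each group, but not whether a SLAM sample and a YPM sample came from the same culture. MLY132 is a/alpha and homozygous for delta gpa2::G418, and both strains are homozygous for ura3-52. YPM is a rich maltose medium, in which cells grew to an OD600 of 1.0. SLAM is a synthetic medium of 2% maltose, 0.17% yeast nitrogen base free of amino acids and, as nitrogen source, 50 µM ammonium sulfate; cells filtered from YPM spent 2 h in it at 30 °C. The labels describe SLAM as a low-nitrogen medium that induces pseudohyphal growth, and it differs from YPM in more than nitrogen. The design asks how the factors' transcripts differ between the media in each strain, and whether the loss of GPA2, the G protein alpha subunit that acts upstream of cAMP signalling, changes that difference.

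Ribosome synthesis in yeast starts in the nucleolus, where a long precursor RNA is transcribed and cut into a part for each subunit. The precursor of the large subunit then passes through nucleolus, nucleus and cytoplasm, and at each stage RNA helicases, RNA-binding proteins, methyltransferases and GTPases join and are released. Their genes belong to the ribosome biogenesis regulon, which growing cells express strongly and which falls when the TORC1 or protein kinase A pathway is turned down, as in starved cells.

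GPA2 read 5.42, 5.14 and 5.49 on the 3 deletion SLAM arrays and 5.60, 5.20 and 5.48 in deletion YPM, against 11.10, 11.00 and 10.56 in wild-type SLAM and 10.27, 9.70 and 10.00 in wild-type YPM (log2 expression), so every array matched its strain label. The highest deletion reading, 5.60, is used below as a guide to background, although it comes from a different probe set. Of 16 genes that a/alpha cells repress, STE2, FUS1, HO and 3 others averaged at or under it in all 4 groups, and 8 averaged above it in all 4, among them STE4, MFA2 and RME1. The 2 strains' sample numbers ran from 02 to 12 in the deletion strain and from 14 to 24 in the wild type, so strain and any effect of handling order cannot be told apart. The array weights that limma estimates from all genes were lowest for wild-type SLAM replicate 2 (0.152), followed by deletion SLAM replicates 3 (0.289) and 2 (0.446) and deletion YPM replicate 3 (0.493). The 3′ minus 5′ difference of the ACT1 control probe sets, a guide to RNA integrity, ranged from 0.99 to 1.19 in deletion SLAM, 0.87 to 1.01 in deletion YPM, 0.91 to 1.19 in wild-type SLAM and 0.81 to 1.10 in wild-type YPM. For the SPT15 control probe sets it was 0.37 on wild-type YPM replicate 1 and 1.49 to 2.20 on the other 11 arrays. The part of either in the results below was not tested.

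The lowest of the 4 group means was that of deletion SLAM for all 54 assembly factors, and the highest was wild-type YPM for 51. Set against each gene's wild-type YPM mean, the median factor lay at -2.20, -2.71 and -1.86, on the log2 scale, on deletion SLAM replicates 1, 2 and 3, and at -0.17, -0.04 and -0.74 on the deletion YPM arrays. The corresponding medians were -0.76, -0.96 and -1.81 in wild-type SLAM and -0.16, 0.18 and -0.01 in wild-type YPM, while the median of all 5656 genes stayed between -0.18 and 0.07 on every array. Wild-type SLAM had the widest spread between arrays. Its replicate 3 was the lowest of the 3 arrays for 48 factors and came close to the deletion SLAM arrays, with 25 factors no higher than the highest deletion SLAM array, where replicate 1 had 1 such factor and replicate 2 had 6. Deletion YPM replicate 3 was the lowest of its group for 49 factors. The median SD of a factor was 0.452 in deletion SLAM, 0.340 in deletion YPM, 0.618 in wild-type SLAM and 0.210 in wild-type YPM, against 0.340, 0.227, 0.387 and 0.208 for all genes. Array values are relative to the other transcripts of the same RNA sample, so a change shared by all transcripts of a cell would not be seen. Each RNA sample comes from many cells, so fewer cells holding a transcript and less of it per cell cannot be told apart.

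**Figure D1:**
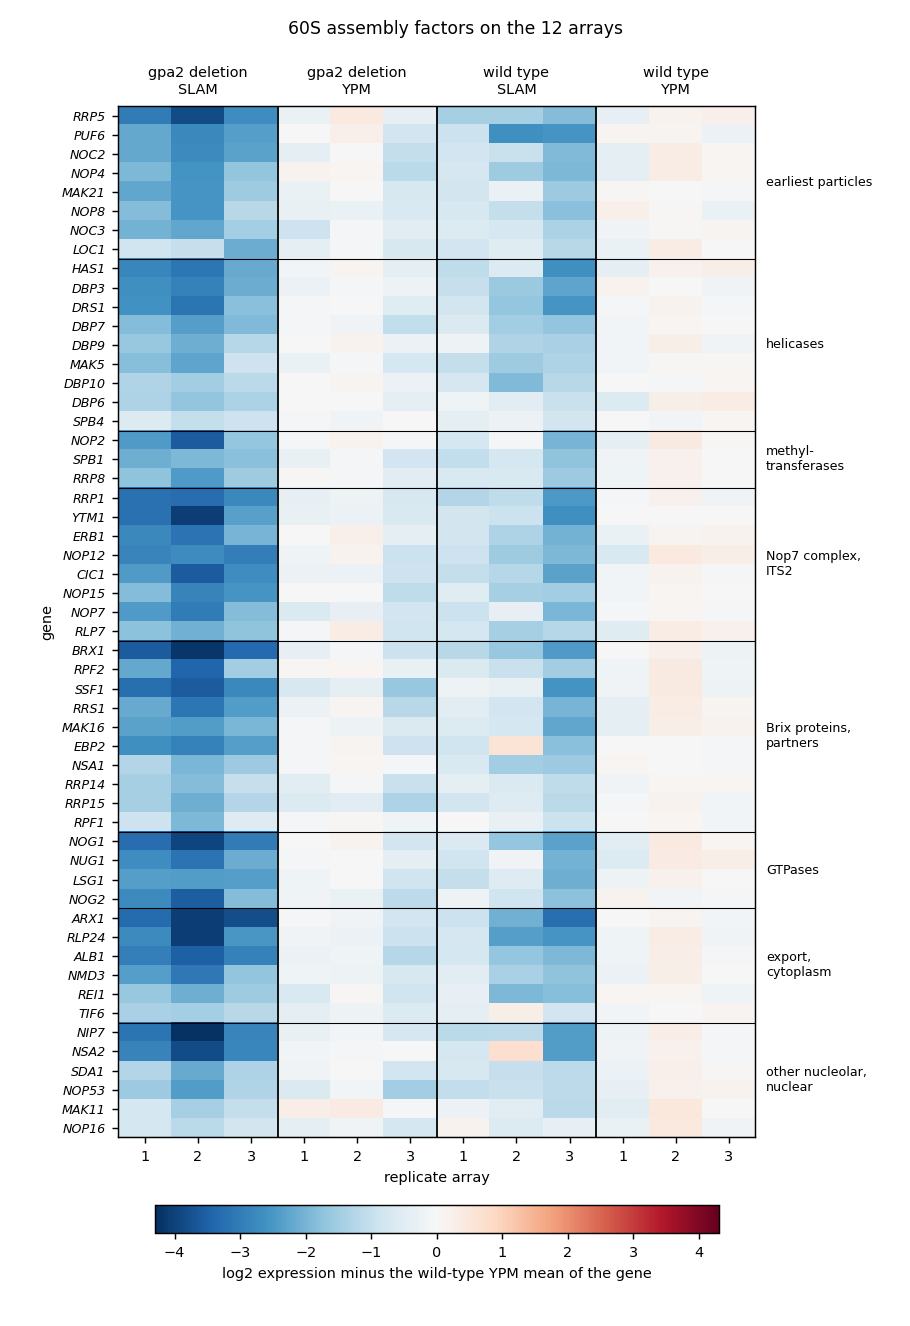
Log2 expression of each of the 54 assembly factors on each of the 12 arrays minus that gene's mean in wild-type YPM, with genes as rows grouped by role and arrays as columns grouped by strain and medium. Blue is lower and red higher; all 54 factors are below the wild-type YPM mean on all 3 deletion SLAM arrays, and in wild-type SLAM replicate 2 EBP2, NSA2 and TIF6 are above it.

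In gpa2 deletion cells, 50 of the 54 factors fell in SLAM against YPM and none rose (limma, adjusted p < 0.05 over all genes), where 14.8% of all genes fell and 13.4% rose. The median log2 difference was -1.97, against 0.01 for all genes, and 48 factors were at or below -1. The 4 that did not pass were LOC1, RRP15, NOP16 and NOP53. In wild-type cells, 25 fell and none rose, where 7.34% of all genes fell and 5.23% rose, and the median was -1.17, against -0.05 for all genes. Those 25 all fell in the deletion strain too, and 25 others passed in the deletion strain but not in the wild type. The 3 SLAM arrays lay wholly below the 3 YPM arrays for 52 factors in the deletion strain, against 21.7% of all genes, and for 45 in the wild type, against 20.4%. Across the 54 factors the differences of the 2 strains had a Pearson r of 0.69, and across all genes 0.851, given as a description because the genes share arrays and normalization.

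The wild-type count moved with single arrays, including arrays of the deletion strain. Of the 54 factors, 0 passed without wild-type YPM replicate 2, 4 without YPM replicate 3, 16 without YPM replicate 1 and 2 without SLAM replicate 3, while 0.46%, 1.47%, 3.98% and 0.884% of all genes then fell. Without SLAM replicate 2, 33 passed (13.6% of all genes), and without SLAM replicate 1, 28 (5.09%). The median over the factors moved less, between -1.41 and -0.86. With a deletion array left out, 18 to 31 passed (4.93% to 9.25% of all genes), and the median stayed at -1.17. Deletion arrays enter the wild-type comparison only through the shared estimate of spread and its degrees of freedom. In the deletion strain, 45 to 52 factors passed with any 1 array left out, where 9.6% to 17.3% of all genes fell. Leaving out both wild-type SLAM replicate 2 and deletion YPM replicate 3 gave 53 falls in the deletion strain, where 17.7% of all genes fell, and 37 in the wild type, where 14.8% did. Of the 50 deletion-strain calls, 44 held under all alternatives that tested them, including a threshold of 0.01; RRP14 lost its call in 8 of 23, RPF1 in 7 of 22, REI1 in 5 of 22, TIF6 in 5 of 23, SPB4 in 3 of 23 and MAK5 in 2 of 23. None of the 25 wild-type calls held under all of them.

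**Figure D2:**
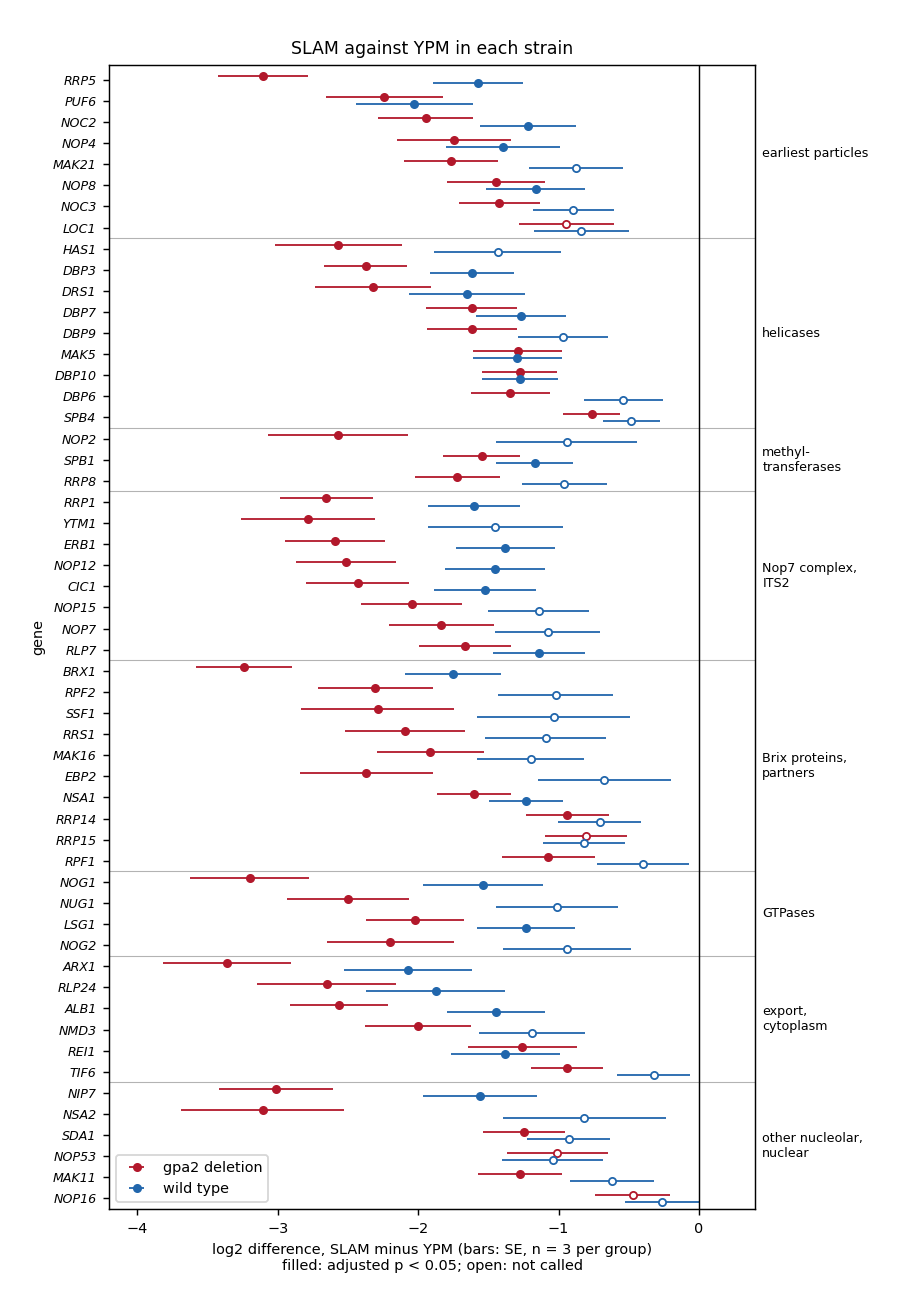
Log2 difference between SLAM and YPM for each of the 54 assembly factors (rows, grouped by role), in red for the gpa2 deletion strain and blue for the wild type, with bars of 1 SE (n = 3 arrays per group) and filled points for adjusted p < 0.05. Every point is below 0, from -3.36 (ARX1, deletion strain) to -0.26 (NOP16, wild type).

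Among 8 factors of the earliest particles, 7 fell in the deletion strain and 5 in the wild type, with medians of -1.75 and -1.19. RRP5, a large RNA-binding protein needed for the RNA of both subunits, read 6.50, 5.66 and 6.84 in deletion SLAM, against 9.23, 9.92 and 9.16 in deletion YPM. In wild-type SLAM it read 8.07, 8.08 and 7.65, against 9.15, 9.65 and 9.72 in wild-type YPM. The media did not overlap in either strain, and RRP5 fell 8.59-fold in the deletion strain (log2 -3.10, SE 0.32, adjusted p = 0.000243) and 2.98-fold in the wild type (log2 -1.57, adjusted p = 0.0149). PUF6, an RNA-binding protein that also represses ASH1 mRNA, read 5.59, 5.03 and 5.43 in deletion SLAM and 7.78, 8.02 and 6.98 in deletion YPM, and 6.88, 5.17 and 5.25 in wild-type SLAM and 7.91, 7.92 and 7.56 in wild-type YPM. Replicate 1 stood above the other wild-type SLAM arrays, and PUF6 fell by 2.24 (SE 0.42) in the deletion strain and 2.03 (SE 0.42) in the wild type on the log2 scale. NOC2, which pairs in turn with MAK21 and NOC3 as particles move from nucleolus to nucleus, fell by 1.95 in the deletion strain (SE 0.34, adjusted p = 0.00207) and by 1.22 in the wild type (SE 0.34, adjusted p = 0.0386) on the log2 scale. Both NOC2 SLAM means lay under the 5.60 background guide, so these falls may be lower bounds. LOC1, which shares the ASH1 pathway with PUF6, had the smallest differences of the group, -0.95 (SE 0.34, adjusted p = 0.0542) in the deletion strain and -0.84 (SE 0.34, adjusted p = 0.113) in the wild type, and neither passed. Its deletion SLAM arrays read 9.05, 8.91 and 7.76, the last of them apart from the others.

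The 9 DEAD-box RNA helicases, which unwind RNA and release factors with the use of ATP, all fell in the deletion strain, and 5 fell in the wild type (medians -1.62 and -1.27). HAS1, which works on the particles of both subunits, read 6.45, 6.15 and 7.11 in deletion SLAM, against 9.14, 9.38 and 8.89 in deletion YPM, a log2 difference of -2.57 (SE 0.45, adjusted p = 0.00209). In wild-type SLAM it read 8.18, 8.69 and 6.62, against 8.84, 9.44 and 9.51 in wild-type YPM. The last of those SLAM arrays stood far under the others, and the wild-type difference of -1.43 (SE 0.45) had adjusted p = 0.0553. DBP3, an early helicase tied to the first cuts between the subunits, fell 5.18-fold in the deletion strain (log2 -2.37, SE 0.30) and 3.07-fold in the wild type (log2 -1.62, SE 0.30). DRS1, a helicase that works with the Nop7 complex, differed by -2.32 in the deletion strain and -1.66 in the wild type, and passed in both. SPB4, which acts later in the nucleolus, had the smallest differences of the group, -0.76 (SE 0.20, adjusted p = 0.0152) in the deletion strain and -0.48 (SE 0.20, adjusted p = 0.127) in the wild type. For MAK5 and DBP10 the strains' values nearly coincided, at -1.29 and -1.28 in the deletion strain and -1.29 and -1.27 in the wild type.

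All 3 methyltransferases of large-subunit RNA fell in the deletion strain and 1, SPB1, fell in the wild type. NOP2, which methylates a cytosine base, read 7.36, 6.22 and 8.14 in deletion SLAM and 9.74, 9.96 and 9.74 in deletion YPM (log2 difference -2.57, SE 0.50, adjusted p = 0.00335). Its wild-type SLAM arrays read 9.03, 9.73 and 7.82, overlapping the wild-type YPM readings of 9.37, 10.18 and 9.85, and the difference of -0.94 did not pass (SE 0.50, adjusted p = 0.218). SPB1, which methylates ribose, differed by -1.55 (SE 0.28) in the deletion strain and -1.17 (SE 0.28, adjusted p = 0.0226) in the wild type. RRP8, which methylates an adenine base, had -1.72 and -0.96, of which the wild-type value did not pass, with adjusted p = 0.0557.

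The Nop7 complex and the factors around the spacer RNA ITS2 had a median of -2.47 in deletion cells, the lowest of the 8 roles, and -1.41 in wild-type cells. All 8 fell in the deletion strain, 5 fell in the wild type, and for all 8 the SLAM arrays lay below the YPM arrays in each strain. NOP7, ERB1 and YTM1 form 1 complex, known as PeBoW in mammals. ERB1 read 7.72, 7.31 and 8.51 in deletion SLAM and 10.50, 10.72 and 10.10 in deletion YPM, and 9.71, 9.18 and 8.47 in wild-type SLAM and 10.23, 10.60 and 10.66 in wild-type YPM. It fell 6.04-fold in the deletion strain (log2 -2.59, SE 0.35, adjusted p = 0.000694) and 2.60-fold in the wild type (log2 -1.38, SE 0.35, adjusted p = 0.0302). YTM1 had 7.09, 6.26 and 7.98 in deletion SLAM, against 10.00, 10.06 and 9.64 in deletion YPM, and fell 6.89-fold (adjusted p = 0.00190). In wild-type SLAM YTM1 had 9.52, 9.37 and 7.68, against 10.31, 10.32 and 10.29 in wild-type YPM. Only its replicate 3 was more than 1 log2 unit below YPM there, and the difference of -1.45 (SE 0.48) had adjusted p = 0.0635. RRP1, which sits beside this complex, fell by 2.65 (SE 0.33) in the deletion strain and 1.60 (SE 0.33) in the wild type on the log2 scale. RLP7, a relative of ribosomal protein L7 that binds near ITS2 with CIC1 and NOP15, had the smallest mean difference of the group and passed in both strains, at -1.67 and -1.14.

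Of the 10 Brix-domain proteins and partners, 9 fell in the deletion strain and 2, BRX1 and NSA1, fell in the wild type (medians -2.00 and -1.03). Brix-domain proteins bind precursor RNA, each with a partner. BRX1, the partner of EBP2, read 6.05, 5.45 and 6.28 in deletion SLAM, against 9.26, 9.55 and 8.68 in deletion YPM. In wild-type SLAM it read 8.44, 7.98 and 7.19, against 9.62, 9.84 and 9.41 in wild-type YPM. No SLAM array reached a YPM array of its strain, and BRX1 fell 9.43-fold in the deletion strain (log2 -3.24, SE 0.34, adjusted p = 0.000243) and 3.37-fold in the wild type (log2 -1.75, SE 0.34, adjusted p = 0.0124). EBP2 read 6.00, 5.74 and 6.30 in deletion SLAM, against 8.60, 8.77 and 7.76 in deletion YPM, and fell by 2.37 on the log2 scale (SE 0.47). In wild-type SLAM EBP2 read 7.81, 9.25 and 6.87, the middle value above all 3 wild-type YPM readings of 8.67, 8.68 and 8.61. RPF2, which with RRS1 brings in the 5S particle, fell by 2.30 on the log2 scale in the deletion strain (SE 0.41), and the wild-type difference of -1.02 did not pass (SE 0.41, adjusted p = 0.111). SSF1, which binds with RRP14 and RRP15, read 4.81, 4.47 and 5.31 in deletion SLAM and 7.37, 7.65 and 6.43 in deletion YPM, and 7.85, 7.74 and 5.50 in wild-type SLAM and 7.90, 8.44 and 7.86 in wild-type YPM. Only the last of its wild-type SLAM arrays was far below YPM, and the strain's difference was -1.03 (SE 0.54, adjusted p = 0.211). RPF1, found in 1 module with MAK16, NSA1 and RRP1, had the smallest mean difference of the group, -1.07 in the deletion strain (adjusted p = 0.0299, with 0.00163 to 0.0969 over the alternatives and a lost call with quantile normalization) and -0.40 in the wild type (adjusted p = 0.434). RRP15 passed in neither strain, at -0.81 (SE 0.29, adjusted p = 0.0568) and -0.82 (SE 0.29, adjusted p = 0.0774).

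The 4 GTPases all fell in the deletion strain, and NOG1 and LSG1 fell in the wild type (medians -2.35 and -1.12). NOG1 had 6.83, 6.15 and 7.11 in deletion SLAM, against 10.09, 10.28 and 9.32 in deletion YPM, and 9.48, 8.44 and 7.80 in wild-type SLAM, against 9.63, 10.51 and 10.21 in wild-type YPM. That was a 9.19-fold fall in the deletion strain (log2 -3.20, SE 0.43, adjusted p = 0.000597) and a 2.91-fold fall in the wild type (log2 -1.54, SE 0.43, adjusted p = 0.0376). NUG1, a nuclear GTPase, fell by 2.50 (SE 0.44) in the deletion strain. Its wild-type SLAM readings of 9.09, 9.80 and 7.90 overlapped the wild-type YPM readings of 9.36, 10.29 and 10.18 (difference -1.01, adjusted p = 0.135). LSG1, the cytoplasmic GTPase that helps release the export adaptor NMD3, read 5.89, 5.86 and 5.88 in deletion SLAM, against 8.06, 8.26 and 7.40 in deletion YPM (log2 difference -2.02). NOG2, which holds the NMD3 binding site until export, differed by -2.20 (SE 0.45, adjusted p = 0.00433) in the deletion strain and -0.94 (SE 0.45, adjusted p = 0.174) in the wild type.

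Export and cytoplasmic maturation factors fell in all 6 cases in the deletion strain and in 4 in the wild type (medians -2.28 and -1.41). ARX1, a nuclear export factor of the large subunit, had the largest differences of all 54 genes in both strains. It read 5.56, 4.82 and 5.05 in deletion SLAM, against 8.77, 8.71 and 8.05 in deletion YPM. In wild-type SLAM it read 7.95, 6.81 and 5.63, against 8.88, 8.97 and 8.76 in wild-type YPM. The fall was 10.3-fold in the deletion strain (log2 -3.36, SE 0.46, adjusted p = 0.000681), where SLAM lay under the background guide and the value may be a lower bound. In the wild type the fall was 4.21-fold (log2 -2.07, SE 0.46, adjusted p = 0.0184). ALB1, the binding partner of ARX1, fell by 2.56 (SE 0.35) in the deletion strain and 1.45 (SE 0.35) in the wild type on the log2 scale. REI1, which removes ARX1 in the cytoplasm, differed by -1.26 and -1.38, and passed in both; it is the 1 member whose probe set may also pick up other transcripts. RLP24, a relative of ribosomal protein L24 that is exchanged for it in the cytoplasm, read 7.13, 5.81 and 7.37 in deletion SLAM, against 9.72, 9.61 and 8.94 in deletion YPM. In wild-type SLAM RLP24 read 9.15, 7.47 and 7.32, against 9.69, 10.18 and 9.71 in wild-type YPM, with replicate 1 the highest of the SLAM arrays. It fell 6.29-fold in the deletion strain (adjusted p = 0.00269) and 3.67-fold in the wild type (adjusted p = 0.0321). TIF6, which keeps the subunits from joining too early, had the smallest differences of this group. It read 9.90, 9.83 and 10.08 in deletion SLAM and 10.89, 11.04 and 10.69 in deletion YPM, a fall of 1.92-fold (adjusted p = 0.0181). Its wild-type SLAM readings of 10.87, 11.54 and 10.44 spanned the wild-type YPM readings of 11.16, 11.27 and 11.40, and the difference was -0.32 (SE 0.26, adjusted p = 0.420).

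Of the other 6 nucleolar and nuclear factors, 4 fell in the deletion strain and 1, NIP7, fell in the wild type. NIP7, which binds the precursor RNA, read 5.08, 3.97 and 5.36 in deletion SLAM, against 7.90, 8.08 and 7.47 in deletion YPM, and 7.06, 7.10 and 5.79 in wild-type SLAM, against 7.99, 8.50 and 8.14 in wild-type YPM. NIP7 fell 8.08-fold in the deletion strain (log2 -3.01, SE 0.41), which may be a lower bound, and 2.94-fold in the wild type (log2 -1.56, SE 0.41, adjusted p = 0.0314). NSA2, a factor of late nucleolar and nuclear particles, had the widest contrast between strains. It read 8.05, 7.09 and 8.10 in deletion SLAM, against 10.79, 10.88 and 10.90 in deletion YPM, an 8.62-fold fall (log2 -3.11, SE 0.58, adjusted p = 0.00271). In wild-type SLAM NSA2 read 10.17, 11.64 and 8.50, against 10.79, 11.10 and 10.89 in wild-type YPM. Those wild-type SLAM arrays spread over more than 3 log2 units, with 1 of them above every YPM array, and the difference of -0.82 (SE 0.58) had adjusted p = 0.363. SDA1, needed for nuclear export of the precursor, differed by -1.25 in the deletion strain (adjusted p = 0.00816) and -0.93 in the wild type (adjusted p = 0.0557). NOP16 had the smallest differences of all 54 genes in both strains, -0.47 (SE 0.27, adjusted p = 0.211) and -0.26 (SE 0.27, adjusted p = 0.542). MAK11 averaged under the background guide in all 4 groups, so its call in the deletion strain compares dim readings.

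In the deletion strain the SLAM means of 11 factors lay at or under the background guide while YPM lay above it, so the falls of ARX1, CIC1, DRS1, MAK16, MAK21, NIP7, NOC2, NOP12, PUF6, SPB1 and SSF1 may be lower bounds there. In the wild type this held for NOC2 and NOP12. The guide comes from a different probe set, and no floor at its level was shown for these factors.

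**Figure D3:**
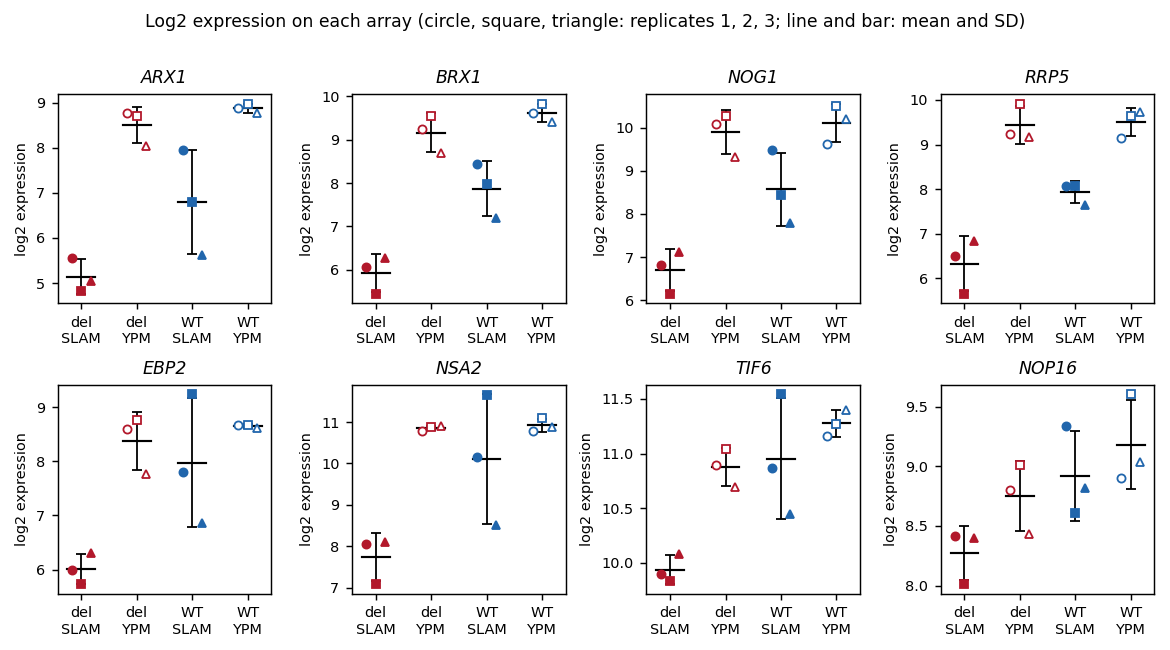
Log2 expression (vertical axis, a scale of its own in each panel) of 8 assembly factors on every array of the 4 groups, with the group mean as a line and the SD as a bar (n = 3). In ARX1, BRX1, NOG1 and RRP5 the deletion SLAM arrays are the lowest, whereas wild-type SLAM replicate 2 is the highest array of all 12 for EBP2, NSA2 and TIF6.

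In SLAM, all 54 factors averaged lower in the deletion strain than in the wild type, where 52.4% of all genes did, with a median log2 difference of -1.09 against -0.03 for all genes. This comparison uses the same SLAM arrays as the comparisons above. Of these, 7 passed, where 1.73% of all genes were called lower and 1.08% higher, and 41 had an unadjusted p under 0.05, against 12.6% of all genes on the lower side. The 7 were ALB1, BRX1, EBP2, NIP7, NOG1, RRP1 and RRP5. For each of the 7, every deletion SLAM array lay below every wild-type SLAM array, as the readings of RRP5 and BRX1 above show. RRP5 was 3.03-fold lower in deletion cells (log2 -1.60, SE 0.32, adjusted p = 0.0360), and BRX1 3.85-fold lower (log2 -1.94, SE 0.34, adjusted p = 0.0311). The other calls were EBP2 (-1.96, adjusted p = 0.0490), NOG1 (-1.88, adjusted p = 0.0416), NIP7 (-1.84, adjusted p = 0.0397), ALB1 (-1.67, adjusted p = 0.0391) and RRP1 (-1.47, adjusted p = 0.0399). The largest differences, NSA2 at -2.36 (SE 0.58, adjusted p = 0.0503) and SSF1 at -2.17 (SE 0.54, adjusted p = 0.0540), did not pass. At the other end stood DBP10 (-0.05), SPB4 (-0.35) and MAK5 (-0.36). The strains' arrays did not overlap for 29 factors, against 10.6% of all genes. The deletion means of ARX1, CIC1, DRS1, MAK16, MAK21, NIP7, PUF6, SPB1 and SSF1 lay under the background guide and their wild-type means above it. The differences of these factors may be lower bounds. For MAK11, NOC2 and NOP12 both SLAM means lay under the guide, so dim readings are compared.

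These calls depended on single arrays of either strain. With 1 array left out, from 0 to 30 factors passed: 30 without wild-type SLAM replicate 3 (5.34% of all genes), 14 without deletion SLAM replicate 3 (2.63%) and 11 without deletion YPM replicate 3 (2.33%). None passed without wild-type SLAM replicate 2 (0.23% of all genes), deletion SLAM replicate 1 (0.053%), deletion YPM replicate 1 (0.141%) or wild-type YPM replicate 2 (0.159%) or 3 (0.124%). Without deletion SLAM replicate 2, 1 passed (0.919%). Without deletion YPM replicate 2 (0.46%), wild-type SLAM replicate 1 (0.902%) or wild-type YPM replicate 1 (0.513%), 2 passed. The median difference ranged from -1.44 to -0.83 with a SLAM array left out. It stayed at -1.09 with any YPM array left out. YPM arrays enter this comparison only through the shared estimate of spread and its degrees of freedom. The counts without a YPM array therefore moved with no change in any factor's difference. With both wild-type SLAM replicate 2 and deletion YPM replicate 3 left out, 2 factors passed (0.672% of all genes). None of the 7 calls held under all alternatives: BRX1 lost its call in 7 of 23, at the low end, and EBP2 in 17 of 23, at the high end.

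In YPM, the deletion strain averaged lower for 51 factors, where 60.6% of all genes did, and none passed in limma, where 0.0177% of all genes, GPA2 alone, did. The median was -0.36, against -0.07 for all genes, and 1 factor, RRP15, had an unadjusted p under 0.05, against 1.79% of all genes on the lower side. RRP15 read 6.85, 6.95 and 6.10 in deletion YPM, against 7.38, 7.58 and 7.32 in wild-type YPM, with no overlap (log2 difference -0.79, SE 0.29, adjusted p = 0.994). SSF1 had the largest difference, -0.91 (SE 0.54, adjusted p = 0.994), and NOP53 read -0.74 (SE 0.36). The strains did not overlap for 8 factors, against 13.2% of all genes: NOP7, YTM1, RRP1, CIC1, SSF1, RRP15, NOG2 and TIF6. Only MAK11 (0.21, between dim readings), NOP2 (0.01) and NSA1 (0.01) averaged higher in the deletion strain. Without deletion YPM replicate 3 the median of the 54 was -0.13.

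**Figure D4:**
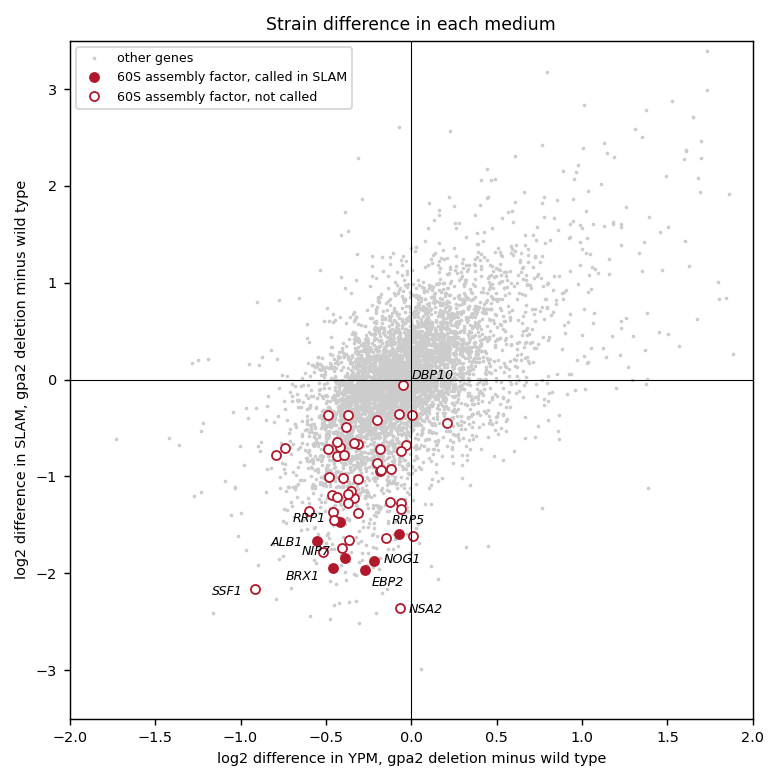
Log2 difference between gpa2 deletion and wild type in SLAM (vertical) against that in YPM (horizontal); red circles are the 54 assembly factors, filled where called in SLAM, and grey points the other genes, 7 of which fall outside the axes. The factors lie below 0 in SLAM, from -2.36 (NSA2) to -0.05 (DBP10), and mostly to the left of 0 in YPM.

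The SLAM difference was larger in the deletion strain than in the wild type for 50 of the 54 factors, with a median difference of responses of -0.76, against 0.04 for all genes, of which 46.0% had a value below 0. None passed the test of that difference in limma, nor did any of the 5656 genes. At an unadjusted p under 0.05 stood 12 factors, all with the larger fall in the deletion strain, where 2.3% of all genes were on that side: RRP5, BRX1, NSA2, NOG1, NIP7, EBP2, ERB1, NUG1, NOP2, RRP1, ALB1 and RPF2. NSA2 had the largest, -2.29 (SE 0.82), followed by EBP2 at -1.69 (SE 0.67) and NOG1 at -1.66 (SE 0.60), each with adjusted p = 0.980. On the other side REI1 (0.12), NOP53 (0.03) and RRP15 (0.02) lay near 0 with SEs of 0.55, 0.51 and 0.41. So the factors called in the deletion strain alone are not shown to differ between strains. With limma's array weights, 7 passed, where 2.55% of all genes were called on that side: BRX1, EBP2, NOG1, ERB1, NOG2, ALB1 and RRP1, from -2.03 to -1.31 with adjusted p between 0.0302 and 0.0431, against 0.980 for each without weights. The weights of replicates 1, 2 and 3 were 4.117, 0.446 and 0.289 in deletion SLAM and 0.63, 1.552 and 4.18 in wild-type YPM. They were 3.305, 1.574 and 0.493 in deletion YPM and 1.687, 0.152 and 0.699 in wild-type SLAM. In each group 1 array thus held most of the weight, and the estimation of the weights stopped before convergence.

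Other assembly factors of the large subunit, 34 listed with 32 measured, gave 25 falls in the deletion strain and 10 in the wild type, with medians of -1.50 and -0.95. Of all genes, 14.8% fell in the deletion strain and 7.34% in the wild type. MRT4, the factor that holds the place of the stalk protein P0, differed by -3.13 in the deletion strain (adjusted p = 0.00185) and -1.53 in the wild type (adjusted p = 0.0740). DBP2, a further DEAD-box helicase, fell by 2.74 and 1.87 on the log2 scale. JJJ1, the cytoplasmic J-protein that works with REI1, stood at -0.05 and 0.02 between dim readings and passed in neither.

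Of 58 measured proteins of the small subunit processome and snoRNPs, 56 fell in the deletion strain and 29 in the wild type (medians -1.95 and -1.23). For this list and the next, the shares of all genes that fell were 14.8% in the deletion strain and 7.34% in the wild type. NOP1, the snoRNA-guided methyltransferase, had the lowest mean of the 2 strains' differences, -4.03 and -2.09, followed by the nucleolar protein NSR1 at -3.98 and -2.10, and UTP30 had the highest, -0.67 and -0.25. Of 81 large-subunit ribosomal protein genes listed, 47 had a probe set annotated to 1 gene; 46 of these fell in the deletion strain and 22 in the wild type (medians -2.56 and -1.24). RPL36B (-3.50 and -2.16) and RPL7B (-2.87 and -2.78), each measured by a probe set open to related transcripts, had the lowest means of the 2 differences, and RPL15B had the highest (0.43 and 0.62), passing in neither strain. No test was made between these lists.

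Among 16 regulators of ribosome biogenesis genes, 4 rose and 1 fell in the deletion strain, where 13.4% of all genes rose and 14.8% fell. In the wild type 1 rose and none fell, where 5.23% of all genes rose and 7.34% fell. The medians of the 16 were 0.05 in the deletion strain and -0.37 in the wild type. SCH9, the kinase that TORC1 activates, rose in both strains, by 0.72 in the deletion strain (SE 0.19, adjusted p = 0.0134) and 0.76 in the wild type (adjusted p = 0.0268) on the log2 scale. STB3 and CRF1, repressors of these gene sets, and TOR1 rose in the deletion strain, by 0.79, 1.32 and 1.01, and stood at 0.53, 0.99 and 0.02 in the wild type without passing. TOD6, which represses through the PAC promoter element, fell in the deletion strain (-1.52, adjusted p = 0.0429) and stood at -1.47 in the wild type (adjusted p = 0.0735), while its paralog DOT6 (0.29 and 0.07) and the activator SFP1 (0.09 and -0.13) did not pass. MRS6, which binds SFP1, stood at -0.56 and -0.70, short of the threshold.

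**Figure D5:**
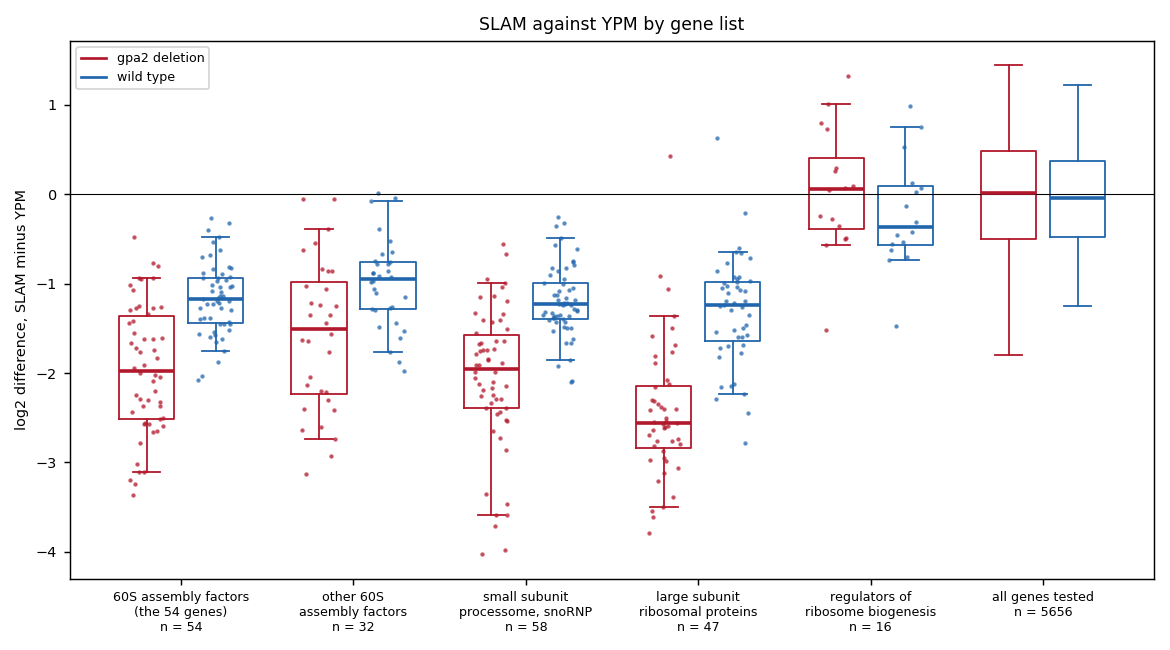
Log2 difference between SLAM and YPM in the gpa2 deletion strain (red) and the wild type (blue) for the 54 assembly factors, 4 related gene lists and all genes tested; boxes span the quartiles with the median as a line, whiskers the 5th to 95th percentiles, and points are genes. The medians of the 54 factors are -1.97 and -1.17, those of all genes 0.01 and -0.05.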

How the data were processed

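Affymetrix Yeast S98 arrays, 1 biotin-labelled RNA sample each, were used. The authors deposited log2 values for 9335 probe sets on 12 arrays (medians 7.33 to 7.50, none missing); GCOS 1.2, MAS5 and RMA appear in the submitters' processing notes, which do not tie these values to any of them, and no detection calls or depth are given in the sources used here. They were used without rescaling. The 60 control probe sets, 2443 without a gene symbol and 328 with several were left out of the tests. The other 6504 all matched RefSeq's gene table (assembly R64), and the probe set with the highest mean was kept per gene, leaving 5656 genes.

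In limma 3.58.1 (R 4.3.3), the 12 arrays entered 1 linear model with a term for each group's mean (8 residual and 4.11 prior degrees of freedom), checked first on simulated arrays. P values were two-sided and Benjamini-Hochberg adjusted over all genes of a comparison; a gene passed, rose or fell at adjusted p < 0.05. Differences are SLAM minus YPM or deletion minus wild type, errors are SEs unless marked SD, and the median SE was 0.287, or 0.406 for the difference of responses; 3 arrays per group limit the precision.

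The members and lists, the grouping by role and the alternatives were chosen with earlier results of these data known. The rule for named genes took, in each role, the 3 factors with the lowest and the 1 with the highest mean SLAM difference, the 3 extremes on each side of every comparison, and 3 genes per related list. Genes outside it, such as NOP7, CIC1, MAK16, MAK21, NOP12, NMD3, SCH9, STB3, TOR1, DOT6 and SFP1, were named after their values were seen. A planned search for promoter motifs was not run, and no sequences were analysed here.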

Additional observations from a re-analysis of the deposited data

How the results depend on the processing

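Quantile normalization, median centring, testing every probe set, omitting probe sets with possible shared targets, a variance trend with robust moderation and a 2-fold filter each kept the counts of falling factors within 1.5 times in every comparison. With the arrays of 1 comparison alone, the wild-type count of 25 became 10 (3.77% of all genes, against 7.34%) and the count of 7 in SLAM became 0 (0.0177%, against 1.73%). Array weights gave 47 in the wild type (24.2% of all genes), 42 in SLAM (10.3%) and 7 for the difference of responses (2.55%), so calls rose over all genes too; their estimation stopped before convergence and they ranged from 0.152 to 4.18. Without the dimmest genes, which left 33 of the factors, 31 fell in the deletion strain (16.8% of the genes tested) and 13 in the wild type (8.06%). At adjusted p < 0.01, 44 passed in the deletion strain (8.54% of all genes), 0 in the wild type (0.477%) and 0 in SLAM (0.0177%). Leaving out wild-type SLAM array 2 and deletion YPM array 3 together gave 2 in SLAM (0.672%). With 1 array left out, falls ranged from 45 to 52 in the deletion strain, 0 to 33 in the wild type and 0 to 30 in SLAM, and stayed at 0 in YPM and for the difference of responses. The causes were not tested. Of the 82 calls on the 54 factors, 44 held under every alternative that tested them, all in the deletion strain's SLAM comparison.

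None of these 82 called differences changed sign under any alternative. Among 81 differences of the named factors, uncalled values changed sign 28 times. DBP10 in SLAM read 0.0066 with quantile normalization and -0.37 to 0.22 with 1 array left out. In YPM, NOP2 read -0.0833 with array weights and -0.20 to 0.20 with an array left out, where NSA1 read -0.0405 to 0.0472 and MAK11 -0.0113 to 0.43. For the difference of responses, array weights gave RRP15 -0.0326 and REI1 -0.42. Leaving out both arrays gave RRP15 -0.11, NOP53 -0.30 and REI1 -0.35, and leaving out 1 gave RRP15 -0.25 to 0.27, NOP53 -0.35 to 0.36 and REI1 -0.16 to 0.63. No paired analysis was possible because no label gives a replicate number shared between groups, and the order of sample numbers does not say which cultures match. The reading of dim factors is limited by background: 12 factors had a group mean at or under the background guide.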

Other observations

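NOG2 had a further probe set outside the tests. It read 6.30, 5.43 and 6.56 in deletion SLAM, against 9.18, 8.94 and 8.20 in deletion YPM, and 8.98, 7.83 and 6.67 in wild-type SLAM, against 9.16, 9.03 and 8.87 in wild-type YPM. On it, as on the one tested, all 3 deletion SLAM arrays lay below the deletion YPM arrays, and wild-type SLAM replicate 1 lay among the wild-type YPM arrays only on this further probe set.

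Of the 54 genes, 4 lie next to another gene of the assembly lists (148 genes for both subunits) in the order of the R64 protein-coding genes. NSA2 and LCP5, a small subunit processome factor, are transcribed away from each other, and differed by -3.11 and -1.84 between SLAM and YPM in the deletion strain and -0.82 and -1.43 in the wild type. RPF1 and GAR1 face each other, at -1.07 and -2.87 in the deletion strain and -0.40 and -1.37 in the wild type. RRP15 and NOC4 also face each other, at -0.81 and -2.33 in the deletion strain and -0.82 and -1.50 in the wild type. NMD3 and DBP8 lie on the same strand, at -2.00 and -1.20 in the deletion strain and -1.19 and -0.83 in the wild type.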
